A study of Mus musculus with 2 samples.

Results

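The collagen genes were examined in ureter explants of wildtype NMRI mouse embryos that had been treated with BIO. BIO (6-bromoindirubin-3-oxime) inhibits the kinase GSK3 and thereby activates canonical WNT signaling. The ureters came from E12.5 embryos and spent 18 h in medium holding either BIO at 10 µM or, as control, its solvent DMSO (2 parts in 1000). The sex of the embryos had not been determined, the study's methods describe medium without serum for these cultures, and each RNA sample came from a pool of ureters. The data comprise 2 arrays with 2 color channels each. Each array held RNA of both conditions, and the dyes were swapped between replicate 1 and replicate 2. Probes were taken as members when their gene name in the scanner tables was written as Col, a number, a and a further number. This held for 69 probes of 44 genes, out of 39429 probes of 29875 genes on the array. By class, 11 genes encode fibrillar chains, 6 encode chains of the basement membrane collagen IV and 27 encode other chains.

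Collagens are matrix proteins whose chains wind into a triple helix, for which glycine has to recur along the chain in a strict Gly-X-Y repeat. Fibrillar collagens build the banded fibrils of connective tissue, collagen IV forms the sheet-like network of basement membranes, and the other classes sit on fibrils, form beaded filaments, span the cell membrane or carry heparan sulfate chains near basement membranes. In the early ureter, a basement membrane separates the epithelium from the mesenchyme, and mesenchymal cells are the main makers of fibrillar collagen in embryonic connective tissue.

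A probe entered the test when one of the conditions, control or BIO, gave a signal well above background on both arrays, and a gene was represented by its brightest such probe. Of the 44 collagen genes, 39 had a tested probe (57 probes in all). The other 5 genes, Col4a3, Col6a4, Col6a5, Col10a1 and Col28a1, stayed without one, and their processed signals lay between 1.05 and 6.69 in all 4 channels. All ratios below are log2 ratios of BIO over control, with the sign of the dye-swapped array turned. A gene is said to have risen or fallen when its adjusted p was below 0.05 (limma, Benjamini-Hochberg over all 28824 probes tested, n = 2 arrays). Each SE given is the moderated one of limma, which draws on the spread over all tested probes as well as on the 2 arrays. Processed signals are array intensities after the scanner software had corrected background and dye, and single genes are compared between channels of the same probe, while sums over a list are compared between channels over the same probes.

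Many collagen genes fell with BIO, in each of the classes, and none rose. Of the 39 collagen genes tested, 19 fell and 0 rose, whereas 14.8% of all 21574 genes tested fell and 9.13% rose. With every channel required to be well above background, which leaves Col8a1 untested, 18 of 37 collagen genes fell, beside 14.9% of all genes. At an unadjusted p below 0.05, the number of risen collagen genes was also 0 (limma). The median log2 ratio of the 39 genes was -0.41, with -0.46 in replicate 1 and -0.24 in replicate 2, beside a median of -0.01 over all genes. On both arrays 27 of the genes lay below 0 and 5 lay above 0. With median centering of the arrays in place of loess, 10 collagen genes fell, and 8.99% of all genes. With the processed signals 13 fell, and 9.61% of all genes. The same test was also run on the table of scores that the authors deposited beside the scanner values. It called 4 as fallen and 1 as risen, beside 6.11% and 8.94% of all genes. Of these 4, 3 were among the 19, and the other was Col17a1. The scores are rounded to 1 decimal, and those of Col18a1, Col23a1, Col17a1 and the risen Col7a1 were equal on both arrays. Rounding thus left these genes no spread between the arrays, and their calls rest on that.

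**Figure D1:**
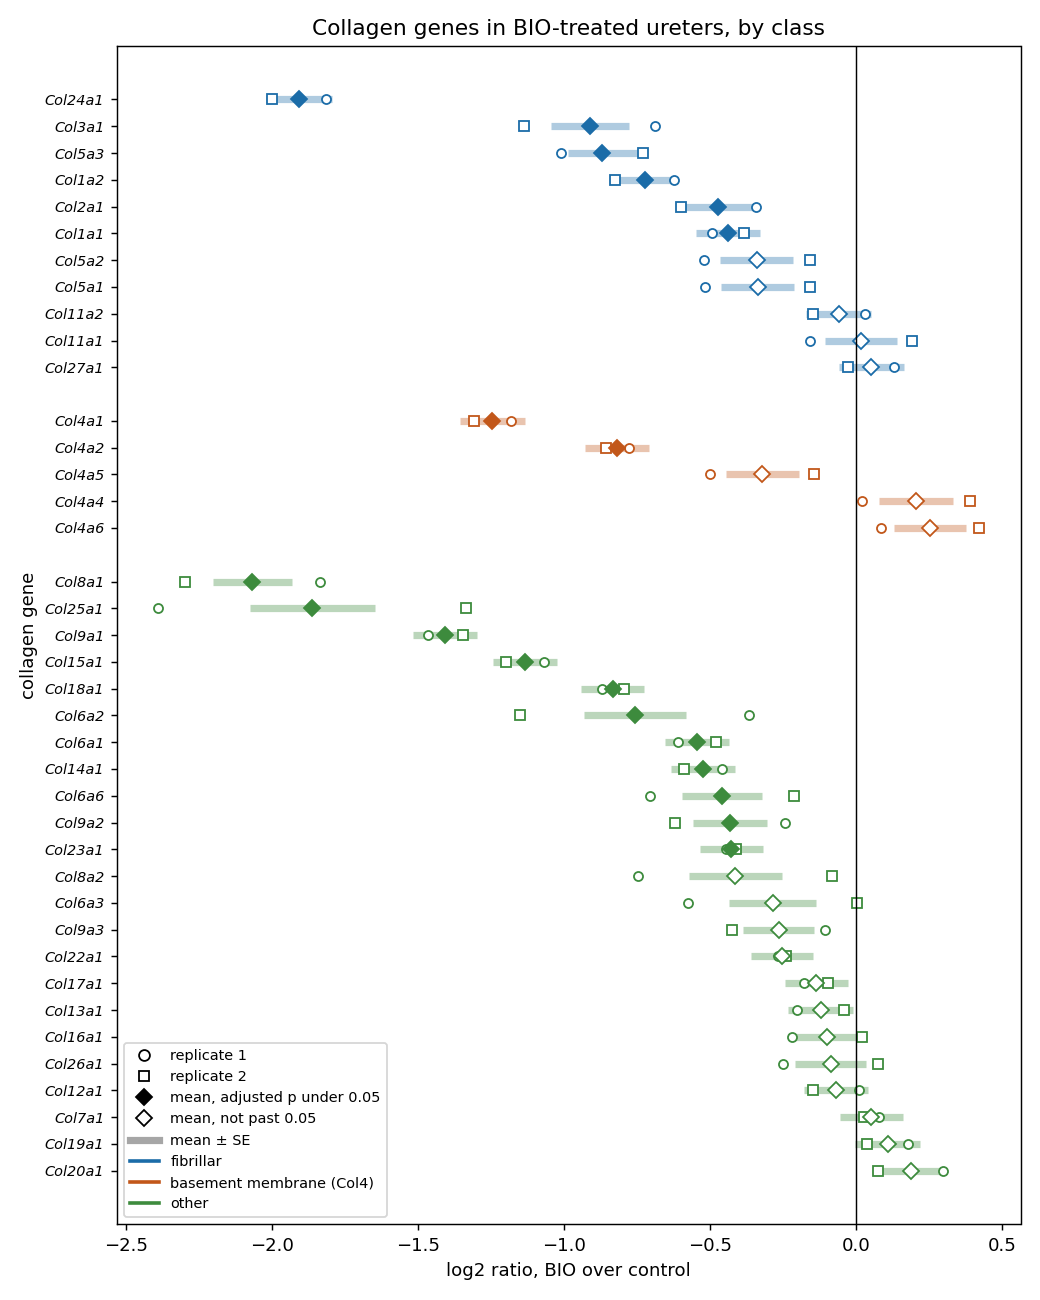
Log2 ratio of BIO over control (horizontal axis) for the 39 collagen genes with a tested probe, by class. Circles and squares are the values of replicate 1 and replicate 2, diamonds are their mean, filled where the adjusted p was below 0.05 (limma), and shaded bars are ± 1 SE. All 19 filled diamonds lie to the left of 0. Col24a1, Col8a1 and Col25a1 lie farthest to the left, and for Col8a1 the BIO channel was not well above background.

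The genes of the major fibrillar collagens I and III fell, and the largest change in this class was that of the minor chain gene Col24a1. All 11 fibrillar genes had 1 probe each, which was tested. Of these, 6 fell and 0 rose, with a median log2 ratio of -0.44 (-0.52 in replicate 1 and -0.39 in replicate 2), beside 14.8% and 9.13% of all genes. Median centering of the arrays left 2 of the 6 calls, those of Col24a1 and Col5a3, and moved the median to -0.29.

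Collagen I is the main fibrillar collagen of most connective tissues, and its molecule holds products of Col1a1 and Col1a2. Col1a1 (NM_007742) had processed signals of 63032 (control) and 40439 (BIO) in replicate 1, and of 66053 and 52375 in replicate 2. Those of Col1a2 (NM_007743) were 70414 and 41646 in replicate 1, and 77862 and 44244 in replicate 2. Both BIO values of each gene lay below both of its control values. The log2 ratio of Col1a1 was -0.44 ± 0.11 (SE, n = 2 arrays; limma adjusted p = 0.0229), and that of Col1a2 was -0.72 ± 0.11 (limma adjusted p = 0.00296). The ratio of Col1a1 was the higher of the pair on both arrays, by 0.13 and 0.44. This difference was not tested. After median centering neither gene passed, with ratios of -0.11 (limma adjusted p = 0.894) and -0.38 (limma adjusted p = 0.297).

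Col3a1 (NM_009930) encodes collagen III, the fibrillar collagen of distensible tissues, which forms mixed fibrils with collagen I. Its processed signal fell from 70916 in control to 38131 with BIO in replicate 1 and from 78283 to 38237 in replicate 2. With ratios of -0.69 and -1.14, the mean was -0.91 ± 0.13 (SE; limma adjusted p = 0.00212). The BIO values of the arrays were close to each other, and both lay clearly below the control values. After median centering the ratio was -0.58 and did not pass (limma adjusted p = 0.0546).

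Collagen V starts the assembly of collagen I fibrils. Its main chain genes Col5a1 and Col5a2 had almost the same values, with log2 ratios of -0.52 and -0.52 in replicate 1 and of -0.16 and -0.16 in replicate 2. Neither passed the test, with adjusted p-values of 0.0885 and 0.0871 (limma). For the remaining chain gene, Col5a3, the processed signal went from 98.2 to 41.2 in replicate 1 and from 121 to 63.6 in replicate 2, a ratio of -0.87 ± 0.12 (SE; limma adjusted p = 0.0015).

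Col24a1 encodes a minor fibrillar chain known from developing bone and eye. Control signals of 600 and 722 stood against BIO signals of 163 and 169 in replicates 1 and 2. The mean log2 ratio was -1.91 ± 0.11 (SE; limma adjusted p = 4.47e-05), a level 3.75-fold lower. Of all 21574 genes, ordered from the most negative ratio, it stood at place 102.

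Of the fibrillar genes of the cartilage type, Col2a1 fell and the others did not pass. Col2a1, which encodes the main fibrillar chain of cartilage and is also transcribed in other embryonic tissues, had processed signals of 23363 and 18603 in replicate 1 and of 26174 and 17803 in replicate 2, control before BIO. Its ratio was -0.47 ± 0.12 (SE; limma adjusted p = 0.0223), and -0.29 after median centering, which did not pass (limma adjusted p = 0.521). Its partner genes Col11a1 and Col11a2 had ratios of 0.02 and -0.06 and did not pass, and neither did the further fibrillar gene Col27a1, with 0.05.

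**Figure D2:**
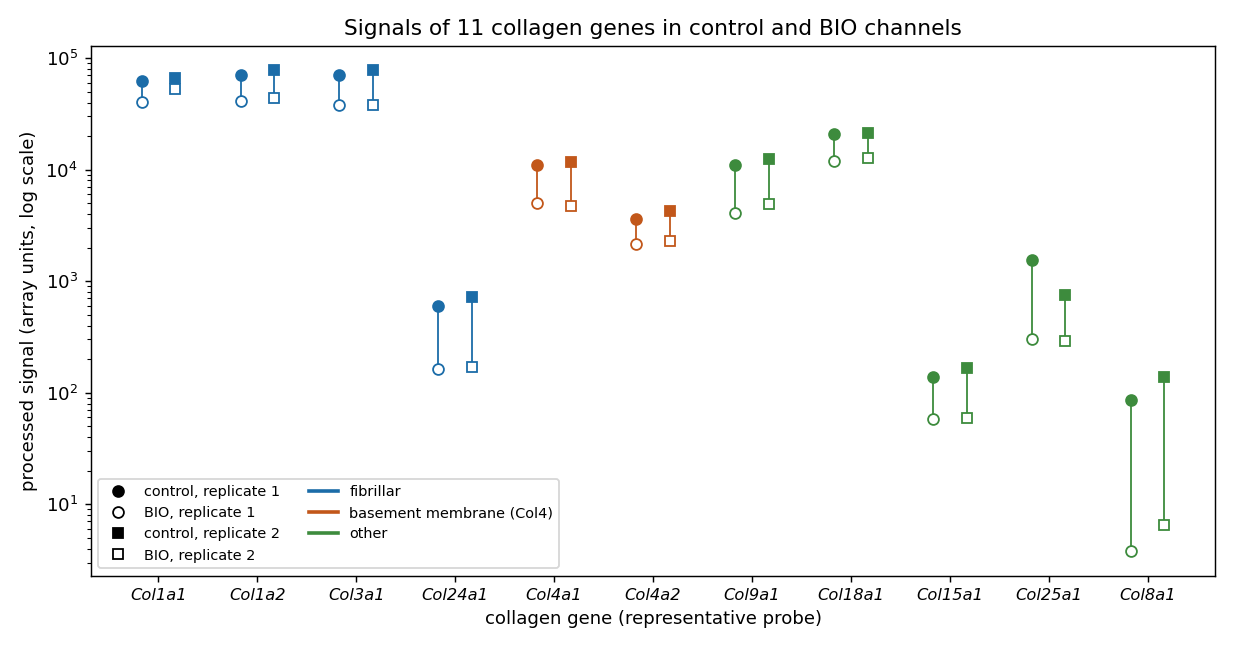
Processed signals (array units, log scale) of the representative probes of 11 collagen genes in the control channel (filled) and the BIO channel (open) of replicate 1 (circles) and replicate 2 (squares). For every gene shown, both BIO values lie below both control values. The signals of Col8a1 with BIO, 3.77 and 6.56, were not well above background.

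Of the collagen IV genes, Col4a1 and Col4a2 fell, and the others did not pass. Genes of collagen IV lie head to head in pairs in the genome, and each pair of neighbors is transcribed in opposite directions. Col4a1 and Col4a2 make the ubiquitous collagen IV network, while the other chains are known from a few specialized basement membranes. At their brightest probes, Col4a4 and Col4a6 lay above 0 on both arrays. Of the 5 tested genes, 2 fell and 0 rose, with a median log2 ratio of -0.32 (-0.50 in replicate 1 and -0.14 in replicate 2), beside 14.8% and 9.13% of all genes.

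The probe of Col4a1 (NM_009931) lies on chromosome 8 at 11199009 to 11199068 (mm9, minus strand). The signal dropped from 10954 to 5029 in replicate 1 and from 11747 to 4711 in replicate 2. Ratios of -1.18 and -1.31 gave a mean of -1.25 ± 0.11 (SE; limma adjusted p = 0.000212), a level 2.37-fold lower. The probe of Col4a2 (NM_009932) lies on the plus strand of the same chromosome at 11448840 to 11448899. There the signal dropped from 3601 to 2152 and from 4230 to 2284, a ratio of -0.82 ± 0.11 (SE; limma adjusted p = 0.00132). All BIO values of both genes lay below their control values. Col4a1 had the more negative ratio on both arrays, by 0.40 and 0.45, a difference that was not tested.

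In the RefSeq promoter windows, which run from 250 bases before to 50 bases from a gene's start (GRCm38.p6), the annotated starts of Col4a1 and Col4a2 were 21 bases apart and their windows overlapped. Those of Col4a5 and Col4a6 on chromosome X were 1343 bases apart. For Col4a5 the processed signals were 4998 and 3663 in replicate 1 and 5322 and 4800 in replicate 2, control before BIO, and the ratio was -0.32 ± 0.12 (SE; limma adjusted p = 0.101). The signals of Col4a6 were 719 and 798 in replicate 1 and 812 and 1116 in replicate 2, with a ratio of 0.25 ± 0.12 (SE; limma adjusted p = 0.179). The ratio of Col4a5 lay below that of the brightest Col4a6 probe by 0.59 and 0.57 on the 2 arrays, which was not tested. A second, dimmer Col4a6 probe had ratios of 0.16 and -0.02 on the arrays and did not pass (limma adjusted p = 0.709). The brightest probe of Col4a4 had a ratio of 0.20, but a second probe had -0.30, with adjusted p-values of 0.289 and 0.0877 (limma). Its partner Col4a3 stayed untested.

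Among the 27 genes of other classes, 23 were tested, of which 11 fell and 0 rose, beside 14.8% and 9.13% of all genes. The ratios of the 23 had a median of -0.41 (-0.37 and -0.24 on the single arrays), which was the same with Col8a1 at the bound given below. Processed signals gave 7 fallen genes and median centering 6 in place of 11, beside 9.61% and 8.99% of all genes. Multiplexins, which carry a fragmented triple helix and lie at basement membranes, fell in 2 of 2 genes. Of the microfibrillar collagen VI genes 3 of 4 tested fell, of the fibril-associated genes 3 of 9, of the transmembrane genes 2 of 4 and of the short chain genes 1 of 2. The 2 further genes tested, Col7a1 and Col26a1, had ratios of 0.05 and -0.09 and did not pass.

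Col8a1 encodes a chain of the short collagen VIII, known from vessel walls and from the basement membrane of the corneal endothelium. Its control signals were 86.7 in replicate 1 and 139 in replicate 2, against 3.77 and 6.56 with BIO. Because the BIO channel was not well above background on either array, only a bound can be given: the level was at least 3.96-fold lower with BIO. The adjusted p of 6.66e-05 (limma) belongs to the ratio of the corrected signals, not to this bound. Col8a1 entered the test through its control channel alone. With every channel required to be well above background, 10 genes of the other classes fell. The bound sets the mean normalized control level against the lowest level that counted as well above background. The partner gene Col8a2 had processed signals of 3944 and 2444 in replicate 1 and of 4371 and 4070 in replicate 2, and did not pass, with a ratio of -0.41 ± 0.16 (SE).

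Col25a1 encodes a transmembrane collagen known from neurons, where motor axons need it to innervate muscle. All 4 of its probes fell, the only collagen gene with more than 2 fallen probes. The 4 probes lie on the plus strand of chromosome 3 between 129885684 and 130301697 (mm9). At the brightest, replicate 1 gave 1562 for control and 304 for BIO, and replicate 2 gave 750 and 289. Its ratio of -2.39 in replicate 1 was farther from 0 than the -1.34 in replicate 2, and the mean was -1.86 ± 0.21 (SE; limma adjusted p = 0.000675). The control signal of this probe differed between the arrays by more than that of the other 3 probes, whose mean ratios were -2.32, -2.16 and -1.51. The 2 probes nearest the 3' end of the gene had the most negative means.

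One of these Col25a1 probes reads the helical part of the message, and its sequence shows the repeat that defines the family. An open reading frame with at least 5 glycine codons (GGN), of which at least 4 follow the one before after 2 other codons, was found in 4 of the 69 probes, from 4 genes. They are given 5′ to 3′ as in the probe design, on the mm9 plus strand, with the glycine codons of that frame in capitals.
Col25a1, chr3:130270497-130270556: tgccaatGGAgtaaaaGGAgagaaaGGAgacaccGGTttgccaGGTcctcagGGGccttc
Col14a1, chr15:55347733-55347792: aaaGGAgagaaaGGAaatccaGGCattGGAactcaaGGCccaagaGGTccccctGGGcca
Col15a1, chr4:47283786-47283845: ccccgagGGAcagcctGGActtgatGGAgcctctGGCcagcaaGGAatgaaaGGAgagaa
Col16a1, chr4:129756457-129756516: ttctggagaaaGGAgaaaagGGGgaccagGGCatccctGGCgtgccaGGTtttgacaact
In the Col14a1 probe the spacing is broken once, between the third and the fourth capital triplet, and in the Col16a1 probe it ends before the last bases. The probe of Col25a1 fell by 1.51 and that of Col14a1 by 0.64. The probe of Col16a1 had a ratio of 0.03 and did not pass, and that of Col15a1 was not tested, with processed signals of 4.98 to 7.96.

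The multiplexin genes Col15a1 and Col18a1 encode the precursors of the fragments restin and endostatin. For Col15a1, processed signals of 137 and 166 in control compared with 57.7 and 59.1 with BIO. Its ratio was -1.13 ± 0.11 (SE; limma adjusted p = 0.000308), and a second probe that overlaps the first fell by 1.02. Col18a1 had processed signals of 20999 and 12016 in replicate 1 and of 21307 and 12805 in replicate 2, control before BIO. Its ratio was -0.83 ± 0.11 (SE; limma adjusted p = 0.0012), and a second probe fell by 0.64. In all of these probes, control lay above BIO on both arrays.

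Fibril-associated collagens have interrupted helices and lie on the surface of fibrils. Col9a1, a chain gene of collagen IX, had control signals of 10992 and 12447 and BIO signals of 4072 and 4937. Its ratios of -1.47 and -1.35 gave a mean of -1.41 ± 0.11 (SE; limma adjusted p = 0.000133). A second, dim probe of Col9a1, farther toward the 5' end of the gene on chromosome 1 at 24201545 to 24201604 (mm9), did not pass. Its processed signals lay between 10.3 and 14.8 in the 4 channels and its ratio was 0.08. The other chain genes of collagen IX moved less than Col9a1 on both arrays: Col9a2 fell by 0.43 ± 0.13 (SE; limma adjusted p = 0.0414), and Col9a3 did not pass, with -0.27. Col14a1, which binds fibrils of collagen I, fell by 0.52 ± 0.11 (SE). The ratios of Col12a1, Col16a1, Col19a1, Col20a1 and Col22a1 ranged from -0.25 to 0.19, and none passed.

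Collagen VI forms beaded microfibrils around cells from 3 chains. Col6a1 had processed signals of 7164 and 4760 in replicate 1 and of 8486 and 6105 in replicate 2, control before BIO, and fell by 0.55 ± 0.11 (SE; limma adjusted p = 0.00934). Col6a2 had 521 and 423 in replicate 1, and 678 and 302 in replicate 2. Its mean ratio was -0.76 ± 0.17 (SE; limma adjusted p = 0.0165), although the arrays differed in size, with -0.37 and -1.15. The remaining main chain gene, Col6a3, did not pass, with -0.58 and 0.00 on the 2 arrays. Col6a6 was dimmer, with 47.8 and 22.9 in replicate 1 and 50.2 and 40.4 in replicate 2, with a ratio of -0.46 ± 0.14 (SE; limma adjusted p = 0.0453). A dimmer probe of Col6a6 had -0.25 and did not pass.

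Of the transmembrane genes beside Col25a1, Col23a1 had processed signals of 4742 and 3652 in replicate 1 and of 5051 and 3779 in replicate 2. Its ratio was -0.43 ± 0.11 (SE; limma adjusted p = 0.024), while the ratios of its other probes were -0.33 and -0.30 and did not pass. Col17a1, the hemidesmosomal collagen of basal epithelial cells, and Col13a1 had ratios of -0.14 and -0.12 and did not pass.

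**Figure D3:**
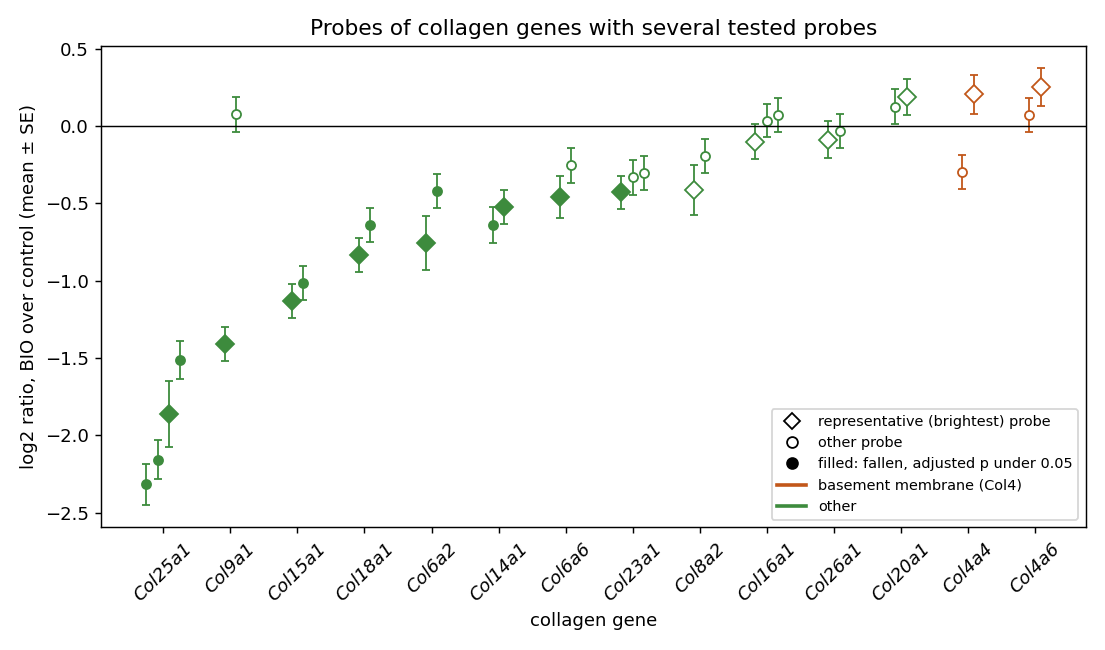
Mean log2 ratio of BIO over control ± SE for each tested probe of the 14 collagen genes with several tested probes. Diamonds mark the brightest probe, which represents the gene, and filled symbols passed an adjusted p of 0.05 (limma). All 4 probes of Col25a1 fell, whereas for Col9a1, Col6a6 and Col23a1 the brightest probe fell and the other probes did not pass.

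The moderated SE of the log2 ratio of the 39 genes lay between 0.11 and 0.21, with a median of 0.11, and Col25a1 had the highest. Its median over all tested genes was also 0.11, since it leans on the spread over all probes (prior degrees of freedom 7.14). It is therefore no measure of how well the 2 arrays agree. It is smaller than an SE from the 2 ratios alone where the arrays differed. Such genes include Col25a1, Col6a2, Col3a1, Col8a1, Col8a2, Col6a6 and Col9a2. The median SD between the spots of a probe was 0.07 on each array. Across the 39 genes, the ratios of the arrays had a Pearson r of 0.832 and a Spearman rho of 0.792, against 0.811 and 0.685 across all genes. These are descriptions across genes, which share their arrays and are not independent replicates. By thresholds that the study used for other arrays, at least 2-fold in the same direction with an intensity of at least 100 on both arrays, 5 collagen genes were lower and 0 were higher, beside 2.04% of all genes lower and 1.04% higher. These were Col4a1, Col9a1, Col15a1, Col24a1 and Col25a1.

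**Figure D4:**
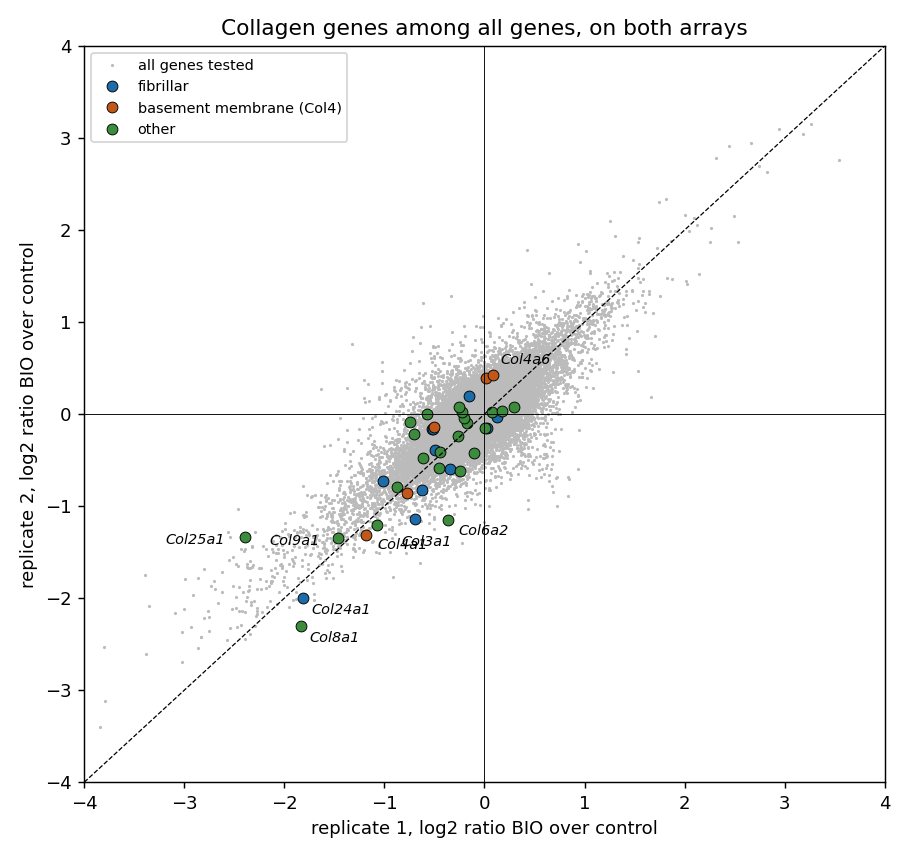
Log2 ratio of BIO over control in replicate 1 (horizontal) and in replicate 2 (vertical, sign turned for the dye swap) for all 21574 genes tested (grey) and the collagen genes by class. The dashed line marks equal values, and 1 gene lies outside the plotted range. Of the 39 collagen genes, 27 lie at the lower left and 5 at the upper right of the zero lines.

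The genes that act on collagen chains were examined next. Collagen chains are hydroxylated and glycosylated in the endoplasmic reticulum, helped by the chaperone HSP47, then trimmed by propeptidases and crosslinked by lysyl oxidases. Of 21 genes for chain modification and export, 5 fell and 0 rose, with a median of -0.19, beside 14.8% of all genes fallen. Processed signals left 2 fallen, beside 9.61% of all genes, and median centering moved the median of the list to -0.08. The largest falls were those of P4ha3, an alpha subunit gene of prolyl 4-hydroxylase, by 1.00, of the galactosyltransferase gene Colgalt2 by 0.79 and of the lysyl hydroxylase gene Plod1 by 0.49. Serpinh1, which encodes HSP47, did not pass, with processed signals of 27406 and 24709 in replicate 1 and 34629 and 32396 in replicate 2, and neither did P4ha1, with a ratio of 0.30.

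Of 15 genes for maturation, 14 were tested, of which 7 fell and 2 rose, with a median of -0.36, beside 14.8% and 9.13% of all genes. Pcolce, the enhancer of procollagen C-proteinase, fell by 0.95, the N-propeptidase gene Adamts2 by 0.88 and the lysyl oxidase-like gene Loxl1 by 0.86. The risen genes were Tll1, a C-proteinase gene of the BMP1 family, and Pcolce2, the second enhancer gene. Tll1 had control signals of 134 and 102 and BIO signals of 424 and 252, a ratio of 1.22 ± 0.12 (SE; limma adjusted p = 0.000359). Pcolce2 had control signals of 67.6 and 75.0 and BIO signals of 187 and 204, a ratio of 1.13 ± 0.11 (SE; limma adjusted p = 0.000301). Pcolce and Pcolce2 thus moved in opposite directions on both arrays.

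Partners of fibrils are mostly small leucine-rich proteoglycans and matricellular proteins. Of these 15 genes 10 fell and 0 rose, beside 14.8% and 9.13% of all genes. The median of the list, -0.67, was lower than that of any collagen class. Aspn, the gene of asporin, had control signals of 160 and 185 and BIO signals of 5.73 and 15.1, and its BIO channel was well above background on 1 of 2 arrays. Its ratio was -2.44 ± 0.11 (SE; limma adjusted p = 3.08e-05). Ogn, the gene of osteoglycin, fell by 2.24 and Lum, the gene of lumican, by 1.31.

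Of 11 further basement membrane genes, 4 fell and 1 rose, with a median of -0.33, beside 14.8% and 9.13% of all genes. After median centering 2 fell, beside 8.99% of all genes. The laminin genes Lama4, Lama5 and Lamb1 fell by 1.65, 0.82 and 0.78. Lama1 rose by 0.69 ± 0.12 (SE; limma adjusted p = 0.00528), from a processed signal of 3371 to 4888 in replicate 1 and from 3472 to 6290 in replicate 2. Of 11 receptor genes 5 fell and 1 rose, with a median of -0.12. Processed signals left 3 fallen, and median centering 2 fallen and 0 risen, beside 9.61% and 8.99% of all genes fallen. Adgrg1, an adhesion receptor that binds collagen III, fell by 1.46, and the beta1 integrin gene Itgb1 by 0.53. Itga2 was not well above background with BIO on either array and was at least 1.31-fold lower. The risen gene was Itga10, a collagen-binding integrin, with 0.49, whose call was lost after median centering. The discoidin domain receptor genes Ddr1 and Ddr2 did not pass, with -0.03 and -0.12.

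**Figure D5:**
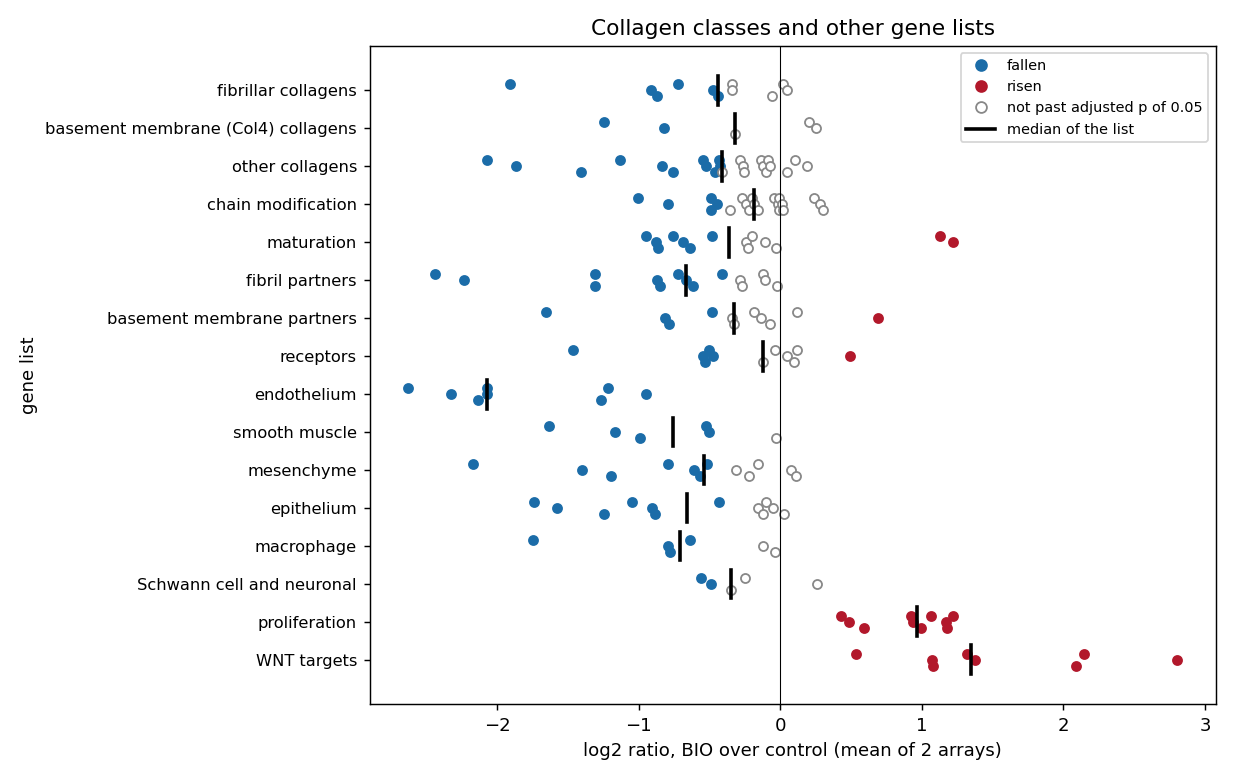
Mean log2 ratio of BIO over control (horizontal axis) for each tested gene of the 3 collagen classes, 5 lists of collagen partners and 8 lists of cell type, proliferation and WNT target genes. Blue points fell and red points rose (adjusted p below 0.05, limma), open grey points did not pass, and black bars are list medians. All endothelial genes lie to the left and all proliferation and WNT target genes to the right of 0.

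Markers of several cell types of the explant moved together with the collagens. In these bulk samples, fewer cells of a type and less RNA per cell cannot be told apart. Endothelial cells also make Col4a1, Col4a2, Col15a1, Col18a1 and Col8a1. All 8 endothelial markers fell, with a median of -2.07, led by Kdr and Cdh5 with -2.63 and -2.32, beside 14.8% of all genes fallen. All were well above background in every channel, and the sum of their processed signals was 26150 and 31393 in control and 4486 and 8587 with BIO. The smooth muscle list fell in 5 of 6 genes, with Acta2 at -1.63 and Des at -1.16, and its sums were 12431 and 13002 in control and 5358 and 5905 with BIO. The part of these markers in the falls of the collagen genes was not tested.

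Of 12 mesenchymal markers 7 fell and 0 rose, with a median of -0.54 and ratios of -2.17 for Pdgfrb and -1.40 for Sfrp2. All genes gave 14.8% fallen and 9.13% risen. The other 5 mesenchymal markers did not pass, and the highest, Gli1, had 0.11. After median centering 4 of the 12 fell, and their median was -0.24. The summed signals of the mesenchymal markers were 238269 and 258376 in control and 152784 and 164348 with BIO. Of 12 epithelial markers 7 fell and 0 rose, with a median of -0.66. Among these, Krt7 fell by 1.74 and Upk1b, not well above background with BIO, was at least 2.85-fold lower. The other 5 epithelial markers did not pass, and the highest, Epcam, had 0.02. The sums were 89441 and 91577 in control and 52495 and 62829 with BIO. Keratins weigh heavily in them: Krt8 and Krt18 gave 28018 and 28778 of the 89441. Of 6 macrophage markers 4 fell, led by Cx3cr1 with -1.75 and Aif1 with -0.79, with sums of 5632 and 6351 in control and 3696 and 5210 with BIO. Of the Schwann cell and neuronal markers, Sox10 fell by 0.49, a call lost with processed signals and after median centering. Erbb3 and Tubb3 did not pass, with -0.25 and 0.26. No tested marker of these 6 lists rose. Their part in the collagen values was not tested either.

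Since Col2a1 and Col9a1 are best known from cartilage, 5 cartilage genes were set beside them. Acan, Cnmd and Matn1, which define cartilage, had no tested probe. Hapln1, a link protein gene, fell by 2.08 ± 0.13 (SE), and the regulator Sox9 did not pass, with -0.80 and 0.34 on the 2 arrays. In contrast to the collagens, all 10 proliferation genes rose, with a median of 0.97 and values of 1.22 for Top2a and 1.18 for Ccnb1. All 8 WNT targets rose, with a median of 1.35 and values of 2.80 for Sp5 and 2.15 for Axin2. Of all genes tested, 9.13% rose and 14.8% fell.

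The promoter windows of collagen genes were searched for short motifs, on both strands. A window was given for 35 of the 44 genes, and 34 windows belonged to 31 tested genes. CTTTGAT and CTTTGAA, cores to which TCF/LEF factors bind, were found in 2.94% and 11.8% of the 34 windows, against 3.73% and 5.14% of all 32851 windows. In the 19 windows that 16 of the fallen genes had, the shares were 5.26% and 15.8%, which are 1 window and 3 windows. CCAAT was found in 35.3% of the collagen windows and 37.4% of all windows, and GGGCGG, the GC box bound by SP factors, in 61.8% and 35.7%. The GGGCGG share was 63.2% in windows of fallen genes and 60.0% in those of tested genes that did not pass. The windows of Col4a1 and Col4a2 both held CCAAT and GGGCGG and neither TCF/LEF core, and that of Col24a1 held none of the 4 motifs.

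The matches of the TCF/LEF cores are shown with up to 20 bases on each side, since BIO acts through this pathway. They are RefSeq sequence of GRCm38.p6, written 5′ to 3′ on the strand of the gene, with the match in capitals (TTCAAAG is CTTTGAA on the other strand).
Col9a2, chr4:121039368-121039414, plus strand: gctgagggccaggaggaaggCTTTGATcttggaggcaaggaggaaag
Col9a1, chr1:24177404-24177450, plus strand: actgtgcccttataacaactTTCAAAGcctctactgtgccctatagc
Col15a1, chr4:47207861-47207907, plus strand: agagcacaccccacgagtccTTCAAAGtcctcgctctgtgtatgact
Col6a2, chr10:76623801-76623847, minus strand: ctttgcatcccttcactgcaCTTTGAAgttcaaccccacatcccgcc
Col13a1, chr10:61979297-61979343, minus strand: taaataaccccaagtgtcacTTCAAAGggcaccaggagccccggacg
They begin between 131 and 215 bases before the start. Col9a1, Col15a1, Col6a2 and Col9a2 fell, and Col13a1 did not pass. The second windows of Col9a1 and Col6a2 held no such match. The matches are letters in a window and were not shown to be bound here.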

How the data were processed

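RNA of BIO-treated and control explants was measured on 2 Agilent two-color arrays with exchanged dyes, both on 1 slide and scanned together. Per the submitters' processing notes, the authors quantified the spots with Feature Extraction 10.7.3.1. The deposited scanner tables give mean spot and local background intensities without normalization, and processed intensities that the software had background-corrected and dye-normalized. The authors also deposited a table of scores with 1 decimal, whose making is not given in the sources used here. It followed a signed fold of BIO over control, with an unknown centering and a median of 1 on both arrays.

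Here intensities were corrected with normexp (offset 50), loess-normalized within arrays and averaged over the 4 spots of a probe, without control and outlier spots (3.49% and 3.16%), in limma 3.58.1 and R 4.3.3. The offset pulls ratios of dim probes toward 0. On the arrays, 80.9% and 73.7% of spots were well above background in control and 70.1% and 78.1% with BIO. A probe counted so when over a share of 0.5 of its spots did. The ratios were tested against 0 (lmFit, eBayes, two-sided, Benjamini-Hochberg). A dye term would leave no residual degree of freedom, and the number of arrays limits the precision. Each array was taken as 1 biological replicate. For the fold rule, processed signals below 15 were set to 15 and the ratios of each array were centered on their median. On simulated data the test was checked before use.

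Named in full were the fallen collagen genes, up to 12 a class, Col1a1, Col1a2, Col3a1, the collagen IV pairs, genes whose probes disagreed, and up to 3 called genes in each direction of each partner list (2 of each marker list). Genes named beyond this were chosen after their values were seen. They include Serpinh1, P4ha1, Ddr1, Ddr2, Sox9, Gli1, Epcam, Krt8, Krt18, Erbb3, Tubb3 and collagens that did not pass. The collagen genes and all lists were chosen with earlier results of these data known. Probe coordinates are those of the files' build, mm9. Promoters and gene names are from RefSeq (GRCm38.p6). Whether a probe lies in an exon or UTR was not analysed here. Some marker results are not reported here.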

Additional observations from a re-analysis of the deposited data

How the results depend on the processing

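The main test was already paired, because each array holds 1 BIO and 1 control sample and the pair is the unit of the test. No collagen gene called as fallen turned its direction under the alternatives run. The sign of 9 genes that did not pass turned: median centering turned Col7a1, Col11a1 and Col27a1, the mean of the tested probes Col4a4 and Col16a1, and leaving out 1 array Col6a3, Col11a1, Col11a2, Col12a1, Col16a1, Col26a1 and Col27a1. The count of fallen fibrillar genes was 6, and 2 with median centering and 0 with the authors' score table, and their median was -0.29 with median centering. The count of fallen collagen IV genes was 2, and 0 with the score table, where Col4a1 had -1.23 (limma adjusted p = 0.0814) and Col4a2 -0.85 (limma adjusted p = 0.102). The count of fallen genes of other classes was 11. It became 7 under processed signals, 6 under median centering and 4 in the test on the score table, which also called 1 as risen (Col7a1). Of the 4, 3 were among the 19 fallen genes and the other was Col17a1. The rounded scores of Col7a1, Col17a1, Col18a1 and Col23a1 were equal on both arrays, which left no spread between them. Over all genes the test on the score table called 8.94% as risen and 6.11% as fallen, so that the majority turned. How far the rounding enters these shares was not tested. The median of the other classes was -0.27 without a filter on dim probes and -0.30 with the mean of the tested probes of a gene. Leaving out 1 array at a time gave medians from -0.52 to -0.39 for fibrillar, from -0.50 to -0.14 for collagen IV and from -0.37 to -0.24 for other genes. The 2-fold rule gave 5 genes, beside 2.04% of all genes lower. It gave 9 at 1.5-fold, 1 at 3-fold and from 5 to 8 with 1 array left out, the 8 without replicate 1. For these other settings no share of all genes is given, so they show only how the collagen count moves with the rule. Median centering ended the calls of Col1a1, Col1a2, Col2a1, Col3a1, Col6a1, Col6a6, Col9a2, Col14a1 and Col23a1, and the processed signals those of Col1a1, Col2a1, Col6a2, Col6a6, Col9a2 and Col23a1. An offset of 16 ended those of Col6a6 and Col9a2, no filter on dim probes those of Col6a2, Col6a6 and Col9a2, and the mean of the tested probes that of Col6a6. The cause was not tested. With 1 array left out, Col6a2 had -1.15 and -0.37, Col6a6 -0.21 and -0.71, and Col9a2 -0.24 without replicate 2. Where all channels had to be above background, Col8a1 was not tested. With 2 arrays, no result has a check beyond the agreement of the arrays, and dim genes have understated ratios.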
